A study of Mus musculus with 6 samples.

Results

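Gata3, Tcf7, Lef1, Bcl11b, Runx1, Runx3, Myb, Ets1, Ikzf1 and Zbtb7b encode transcription factors that start, stabilise or divide the T cell programme in the thymus. They were taken as 1 group of 10 genes, and every probe set that the array's annotation names for them was examined: 26 of 45037 probe sets, covering 9 of the 10 genes among 18193 genes named on the array. Tcf7 was not analysed here. The arrays come from a comparison of 2 genotypes. Per the labels, RNA was taken from double negative thymocytes, T cell precursors with neither CD4 nor CD8, obtained by flow cytometry from 3 wild type mice and from 3 mice lacking both Egr1 and Egr3, whose proteins are zinc finger factors switched on quickly when the pre-T cell receptor signals. Each animal gave 1 single-colour array of amplified RNA, although the titles call the tissue whole thymus. The sources used here do not give strain, age, sex, the way both genes were disrupted or the gate of the sort.

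As background, Notch signals in thymic progenitors switch on Tcf7 and Gata3, whose products open and maintain the T cell programme, and Bcl11b then closes off other fates. RUNX proteins bind DNA together with the partner protein CBFB. Runx1 works from the earliest stages onward and keeps Cd4 silent in double negative cells, whereas Runx3 and Zbtb7b (ThPOK) later drive the CD8 and CD4 branches. Lef1 is the close relative of Tcf7, both reading HMG box sites, and Myb, Ets1 and Ikzf1 (Ikaros) are general lymphoid regulators that act before and after rearrangement of the receptor genes.

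Runx1 and Runx3 gave the lowest and the highest changes of the group, so stretches upstream of their RefSeq starts are shown first. Runx1 is known to be transcribed from a distal and a proximal promoter, and RefSeq (build GRCm38.p6) lists 2 upstream windows for it, each here of 250 bases before a start and written 5′ to 3′ on the gene's strand. The distal one lies at chr16:92826075-92826324 and the proximal one at chr16:92697330-92697579, both on the minus strand of chromosome 16. The distal window of Runx3, on the plus strand of chromosome 4, is chr4:135120395-135120644. Capitals mark words of the EGR motif (GCGTGGGCG or GCGGGGGCG), of the RUNX motif (TGTGGT or TGCGGT) and of the TCF/LEF motif (CTTTGAA or CTTTGTT), searched on both strands.
Runx1 distal: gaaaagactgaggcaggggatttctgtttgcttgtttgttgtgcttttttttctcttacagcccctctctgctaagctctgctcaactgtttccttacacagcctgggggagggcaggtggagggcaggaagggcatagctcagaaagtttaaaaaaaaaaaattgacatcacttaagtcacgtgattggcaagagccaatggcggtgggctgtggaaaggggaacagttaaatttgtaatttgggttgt
Runx1 proximal: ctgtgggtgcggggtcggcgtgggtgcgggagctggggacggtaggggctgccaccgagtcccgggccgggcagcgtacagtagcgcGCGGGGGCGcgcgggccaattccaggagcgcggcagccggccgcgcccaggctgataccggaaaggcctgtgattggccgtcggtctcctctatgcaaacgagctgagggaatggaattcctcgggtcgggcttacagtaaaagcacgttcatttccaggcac
Runx3 distal: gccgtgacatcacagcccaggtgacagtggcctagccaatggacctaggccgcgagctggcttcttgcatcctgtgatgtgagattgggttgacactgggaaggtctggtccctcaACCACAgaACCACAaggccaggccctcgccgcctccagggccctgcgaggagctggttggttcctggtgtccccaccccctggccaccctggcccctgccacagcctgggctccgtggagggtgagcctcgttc
The proximal Runx1 window holds 1 EGR word, 163 to 155 bases before the start, and the distal one holds none of the words searched. The distal Runx3 window holds 2 RUNX words on the opposite strand, 134 to 129 and 126 to 121 bases before the start. Of 32851 windows of this length in the table, 3.06% hold an EGR word, 18.6% a RUNX word and 9.17% a TCF/LEF word. Windows were found for 9 of the 10 genes, 17 in all, some of them overlapping. An EGR word was found in 2 of the 17 (Runx1 and Tcf7), a RUNX word in 2 (Runx3 and Zbtb7b) and a TCF/LEF word in 1 (Bcl11b). These are matches of letters and say nothing of binding.

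Levels below are linear intensities as deposited, and the number of arrays limits their precision. Array medians lay between 19.9 and 23.1. The brightest of 27 control probe sets for bacterial genes read between 18.9 and 29.9, which serves here as an upper level for a probe set without a target. Egr1 read 508, 509 and 455 in wild type and 1757, 1696 and 1221 in the arrays labelled double knockout (the labelled knockouts), opposite to the label, and the 2 Egr3 probe sets did not pass the test (log2 changes of -0.59, SE 0.35, and -0.07, SE 0.36). The sources do not say where these probe sets lie relative to the disrupted parts, so directions are stated for the arrays as labelled. Xist was bright on the 6 arrays (1439 to 6015), while the Y-linked Eif2s3y read 476 on wild type replicate 1 and 186 to 265 on the labelled knockouts. On wild type replicates 2 and 3 it read 13.2 and 0.625. The Y-linked Kdm5d and Uty read 144 and 63.7 on wild type replicate 1. On the labelled knockouts they read 10.3 to 29.5 and 11.4 to 23.4, near or under the brightest bacterial control. Wild type replicate 1 thus carries Xist and signal of all these Y-linked genes, although it is labelled as 1 animal. For the labelled knockouts, signal of both kinds rests mainly on Eif2s3y. Cd4, which sorted double negative cells should lack, lay between 3.15 and 6.08 at its brighter probe set. Cd8a and Cd8b1, which such cells should lack as well, read 68.5 to 197 and 65.9 to 137, above the brightest bacterial control on the 6 arrays. The summed signal of 12 markers of the DN2 and DN3 stages was 29476 to 32852 on the wild type arrays and 17530 to 18335 on the others. Much of this sum was Dntt (10144 to 13575 in wild type, 7115 to 7304 in the labelled knockouts) and Thy1 (4596.5 to 9525 and 3341 to 4089). In the test, 3 of the 12 were lower and none higher, beside 2.84% and 4.14% of all genes. Thy1 did not pass, and others of the list, Kit among them, lay higher in the labelled knockouts without passing. Wild type replicate 3 stood apart in markers of other cells: the summed signal of 11 granulocyte markers was 343 there and 11554 to 27883 on the other 5 arrays, and that of 7 erythroid markers was 5516 against 1321 to 1666, mostly Alas2. No granulocyte (10 tested), erythroid (6), macrophage and dendritic (11), thymic epithelial (9) or double positive (7) marker passed the test. In the labelled knockouts, 1 of 8 B cell markers (Cd79b) and 1 of 5 gamma-delta T cell markers (Cd163l1) passed as higher, beside 4.14% of all genes. Others of these lists lay the other way without passing. Sox13 of the gamma-delta list read 41.3 to 95.6 in wild type and 12.1 to 35.0 in the labelled knockouts. The B cell gene Cd79a read 24.9 to 72.4 and 19.5 to 31.2.

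Runx1 was the single member that passed the test, lower in the labelled knockouts on 2 of its 6 probe sets, while no member passed in the other direction. Of the 2, the dim 1427650_a_at cleared the intensity filter only through its wild type arrays. Its labelled knockouts lay at 4.30 to 4.64 in log2, under the filter value of 4.87. Changes are means of the labelled knockouts minus means of the wild type arrays, in log2 of intensity plus 16 after each array was centred on its median, tested with limma's moderated test and Benjamini-Hochberg adjusted p-values. Of the 26 member probe sets, 24 passed the intensity filter and were tested, and 2 of these 24 had an adjusted p under 0.05, beside 5.03% of all 27022 probe sets tested (2.91% higher and 2.11% lower). With 1 probe set for each gene, 1 of 9 member genes passed, beside 6.98% of 13187 genes (4.14% higher and 2.84% lower). At an unadjusted p under 0.05, 2 of the 24 probe sets were higher and 4 lower, beside 18.8% of all in either direction. Both shares rest on a handful of features, and the count of calls moved with the arrays used: without 1 array at a time, between 0 and 3 member probe sets passed as lower and 0 or 1 as higher.

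The sizes of the changes were spread on both sides of 0. Among the 24 tested probe sets, 11 changes were positive and 13 negative, from -1.40 to 1.04, with a median of -0.03 beside 0.00 over all probe sets tested. The median size without regard to sign was 0.38 for the member probe sets and 0.30 for all. In the centred values, the groups did not overlap in 7 of the 24, 4 lower and 3 higher in the labelled knockouts, beside 23.9% of all probe sets tested (12.3% higher and 11.6% lower). The 4 lower ones belong to Runx1, Lef1 and Bcl11b, and the 3 higher ones to Runx3, Ets1 and Ikzf1, that of Ets1 overlapping before centring.

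**Figure D1:**
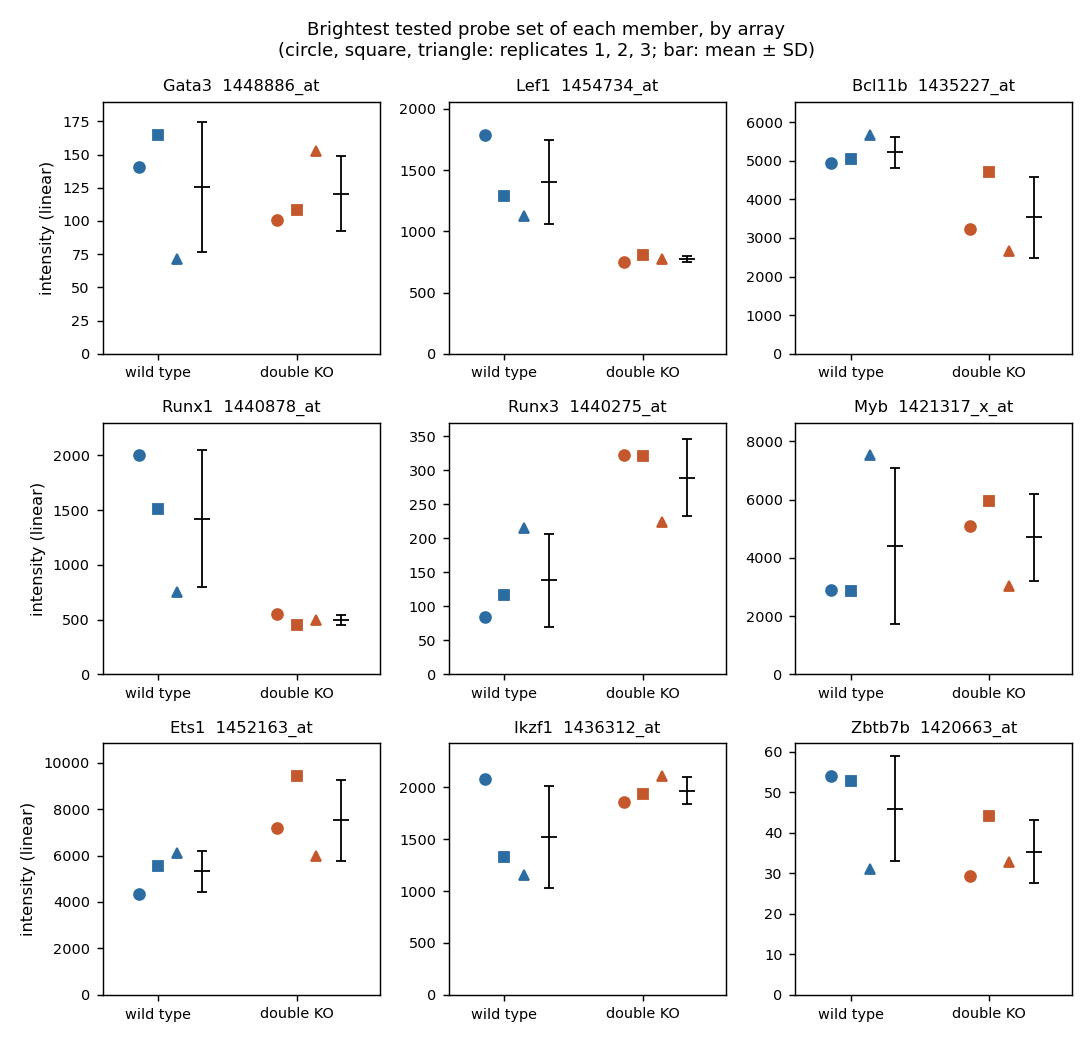
Linear intensity (vertical axes, each from 0) of the brightest tested probe set of each of 9 members on the 3 wild type arrays (blue) and the 3 labelled knockouts (orange), with mean ± SD as black bars. Runx1, Lef1 and Bcl11b have all 3 orange points under the blue ones, Runx3 has all 3 above, and in the other 5 genes the points overlap.

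Runx1 was read by 6 probe sets, whose estimates ranged from -1.40 to 0.13. The brightest, 1440878_at, read 1999.5, 1509.7 and 755 on wild type replicates 1 to 3 and 548, 449.7 and 492 on the labelled knockouts. The groups did not overlap, and wild type replicate 3 was the closest of its group to the other arrays. The probe set fell by 1.40 on the log2 scale (SE 0.33, 95% interval -2.12 to -0.68, n = 3 and 3, limma adjusted p = 0.0319), a 0.379-fold level. The dimmest in the labelled knockouts, 1427650_a_at, read 77.1, 47.9 and 20.2 for wild type and 7.65, 4.52 and 8.94 for the labelled knockouts. It fell by 1.40 as well (SE 0.35, limma adjusted p = 0.0396), but 4 arrays, wild type replicate 3 and all labelled knockouts, were at or under the brightest bacterial control, and the size depends on the offset added before the logarithm: it was -2.50 with an offset of 1 and -0.64 with 64.

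The other 4 Runx1 probe sets did not pass. The second brightest, 1422864_at, read 203, 192 and 169 in wild type against 179, 212 and 138 in the labelled knockouts, and the groups overlapped. Its change was -0.12 (SE 0.25, 95% interval -0.66 to 0.42). The change was -0.64 (SE 0.35) at 1422865_at, where wild type replicate 2 read 176 and the other 5 arrays between 44.8 and 77.0. It was 0.13 (SE 0.25) at 1452530_a_at and -0.37 (SE 0.26) at 1452531_at, which read between 22.3 and 86.9 on the 6 arrays.

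The difference between probe sets was itself tested by asking whether the log ratio of each further probe set to the brightest one of its gene differed between the genotypes. Against 1440878_at, the ratio was higher in the labelled knockouts by 1.28 for 1422864_at (SE 0.35, limma adjusted p = 0.209) and by 1.53 for 1452530_a_at (SE 0.44, adjusted p = 0.226). For the dim 1427650_a_at the difference was set by the offset, -1.06 with 1, 0.00 with 16 and 0.68 with 64. None of the 5 Runx1 pairs passed, beside 0.212% of all 9423 pairs in 5681 genes. An unadjusted p under 0.05 was reached by 3 of the 5, all higher, and the share of all pairs at that threshold is not given here. Without wild type replicate 3, the first and the second of these differences passed (1.61, adjusted p = 0.031, and 1.99, adjusted p = 0.0263). With array weights 3 of the 5 passed: 1422864_at (1.33, adjusted p = 0.0128), 1452530_a_at (1.43, adjusted p = 0.0242) and 1452531_at (1.22, adjusted p = 0.0324). Over all single probe sets, 10.15% passed without wild type replicate 3 and 12.65% with array weights, beside 5.03% in the main fit. The matching shares of all pairs are not given here. The sources do not say which exons or transcripts the probe sets read. The signal from the 3′ end of the Gapdh transcript was 4.83 to 10.1 times that from its 5′ end on the wild type arrays and 4.95 to 8.56 times on the labelled knockouts. For beta-actin it was 5.55 to 8.94 and 4.98 to 6.35 times. The groups overlapped in this measure of how far amplified RNA reached along a transcript. It was highest on wild type replicate 1 for both transcripts, the array with the highest 1440878_at value. Its part in the probe set differences was not tested.

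**Figure D2:**
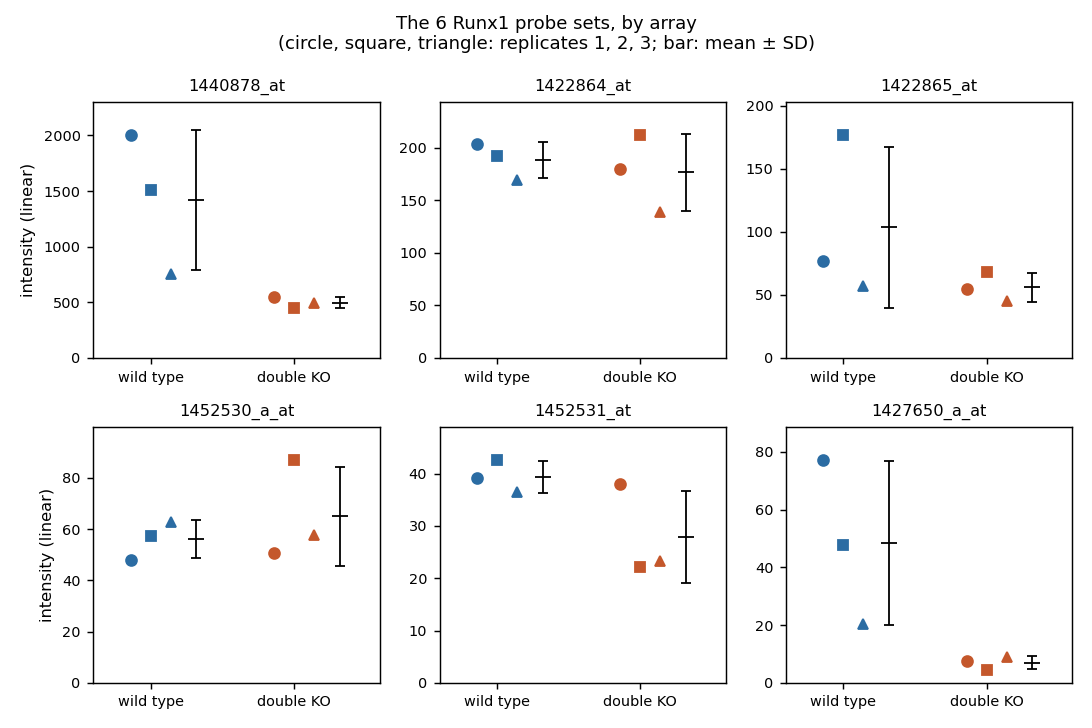
Linear intensity of the 6 Runx1 probe sets (1 panel each, vertical axes from 0) on the 3 wild type arrays (blue) and the 3 labelled knockouts (orange), with mean ± SD. In 1440878_at and 1427650_a_at the groups are apart, with the wild type arrays spread widely, and in the other 4 the points overlap.

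The fall of Runx1 depended on the arrays. Leaving out wild type replicate 1 or 2, or any single labelled knockout, took 1440878_at to an adjusted p between 0.0928 and 0.134, while the change stayed between -1.12 and -1.49 on the log2 scale. Without wild type replicate 3 it was -1.81 (limma adjusted p = 0.000553). The same 5 omissions took 1427650_a_at to between 0.0856 and 0.158, and keeping dim probe sets in the test took it to 0.0852. With the mean over the tested probe sets standing for the gene, Runx1 changed by -0.63 (SE 0.21, adjusted p = 0.114). Over the 6 arrays, the tested genes with the profile closest to that of 1440878_at were Tln1, the cytoskeletal linker talin (Euclidean distance 0.268 in log2 values), the uncharacterised 2700038G22Rik (0.334) and Hirip3 (0.368).

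Runx3, the RUNX factor of CD8 and cytotoxic cells, lay on the other side. Probe set 1440275_at read 84.2, 116 and 215 in the wild type animals and 321, 321 and 224 in the labelled knockouts. The groups did not overlap, although the third replicates of both came close to each other. The change was 1.04 (SE 0.32, 95% interval 0.33 to 1.74, a 2.05-fold level) and did not pass over all probe sets (limma adjusted p = 0.0922), except without wild type replicate 3 (1.36, adjusted p = 0.00821) and with array weights (1.23, adjusted p = 0.00695). The other Runx3 probe set, 1421467_at, was at or under the brightest bacterial control on the 6 arrays (2.62 to 16.2). NK cell markers are shared in part by cytotoxic T cells. Of 7 tested, 3 passed as higher in the labelled knockouts and none as lower, beside 4.14% and 2.84% of all genes. The 3 were the granule gene Nkg7 (162 to 279 in wild type, 1243 to 2423 in the labelled knockouts), the granzyme gene Gzmb (45.5 to 47.7 and 144.5 to 168) and Klrd1, a receptor gene of NK and some T cells (147 to 326 and 657 to 1132). Klre1 of the same list lay the other way without passing, with overlapping groups (33.4 to 79.5 in wild type, 24.1 to 65.7 in the labelled knockouts). The sum over the 9 markers overlapped, 11488 to 16327 against 14324 to 15230, but Gzma alone made up 10488 to 15852 of it, and the NK receptor genes Ncr1 and Klra8 lay between 1.16 and 28.5 on the 6 arrays. Their part in the Runx3 value was not tested.

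Cbfb, the partner that RUNX proteins need on DNA, read 1034, 951 and 571 for wild type and 672, 686 and 741 for the labelled knockouts. It was named for this role after its values were seen. The groups overlapped, with a change of -0.25 (SE 0.27, limma adjusted p = 0.657).

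Lef1 was the member closest to passing after Runx1. Its bright probe set, 1454734_at, read 1788, 1292 and 1129 in wild type against 749.5, 803 and 773 in the labelled knockouts. All 3 of the latter lay under the lowest wild type array and close together. The change was -0.83 (SE 0.24, 95% interval -1.35 to -0.32, a 0.561-fold level), and it did not pass over all probe sets (limma adjusted p = 0.0668). Leaving out wild type replicate 3 let it pass (-0.99, adjusted p = 0.0146), as did array weights (-0.87, adjusted p = 0.0103). The other probe set, 1421299_a_at, was dim (1.02 to 41.3, at or under the brightest control on 3 arrays) and gave 0.16 (SE 0.42). With the mean over both probe sets standing for the gene, Lef1 changed by -0.335 and did not pass. In bulk RNA, fewer cells of a type and less RNA per cell cannot be told apart, which holds for each value here, and 3 of 12 markers of the DN2 and DN3 stages (Ptcra, Il2ra and Dntt) passed as lower on the same arrays as Lef1 and Runx1. Among those that did not pass, Kit lay higher without overlap (24.1 to 47.0 in wild type, 62.3 to 79.7 in the labelled knockouts). Their part in these values was not tested.

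Bcl11b, the zinc finger factor that seals T cell commitment, had 4 probe sets, and none passed. The brightest, 1435227_at, read 4942, 5049 and 5672 in the wild type animals and 3233, 4707 and 2666 in the labelled knockouts. The groups did not overlap, and double knockout replicate 2 lay just under the wild type arrays. The change was -0.62 (SE 0.22, 95% interval -1.11 to -0.13, limma adjusted p = 0.154), and with array weights it was -0.65 (adjusted p = 0.035). The other 3 gave changes of -0.38 (SE 0.26), -0.32 (SE 0.26) and -0.30 (SE 0.27), with overlapping groups, so all 4 estimates were below 0. Within the gene, none of the 3 ratios to the brightest probe set differed between the genotypes in the test (differences of 0.24 to 0.31).

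Gata3, the zinc finger factor needed from the first T lineage steps, had 1 probe set. It read 141, 165 and 71.1 for wild type and 100.4, 108 and 153 for the labelled knockouts. The groups overlapped fully, and the change was -0.02 (SE 0.31, 95% interval -0.71 to 0.66). Its sign turned when any 1 of wild type replicates 1 and 2 and double knockout replicates 1 and 2 was left out (up to 0.22).

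**Figure D3:**
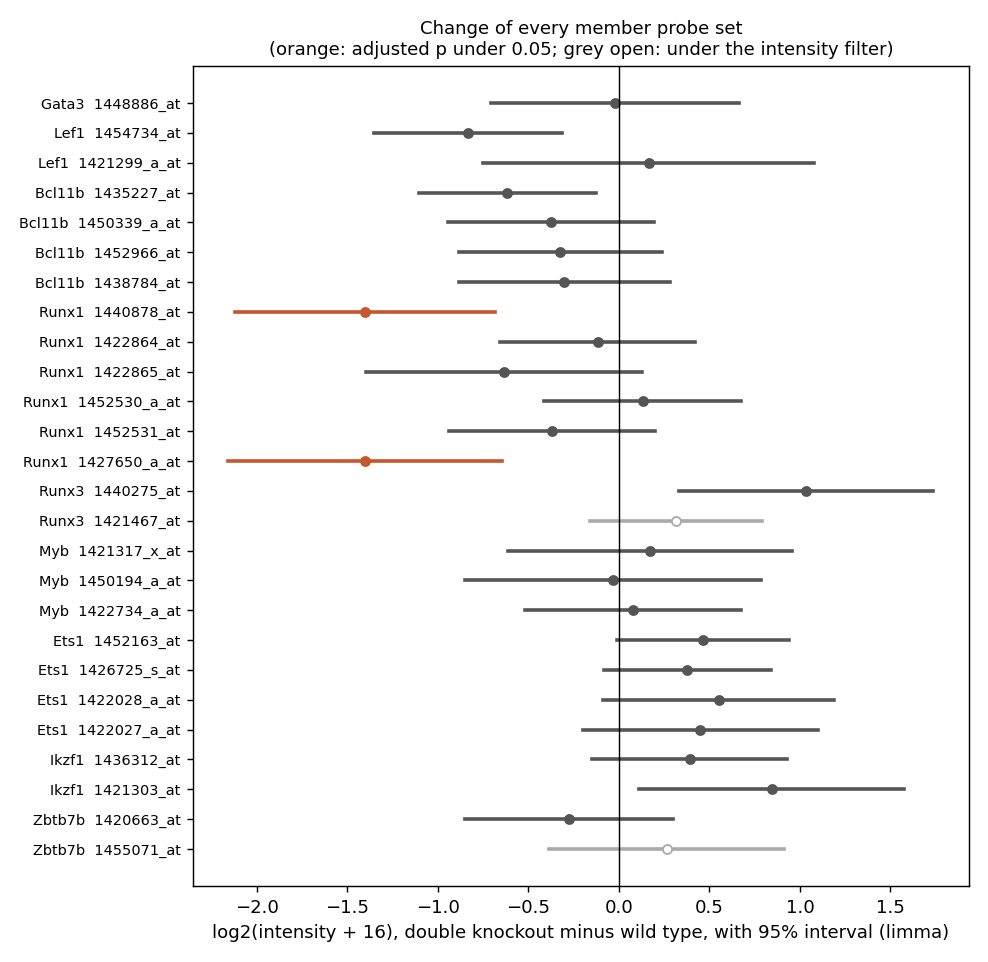
Change of each of the 26 member probe sets in log2(intensity + 16), labelled knockouts minus wild type (horizontal axis), with the 95% interval of the limma fit. The 2 orange Runx1 probe sets have an adjusted p under 0.05, the 2 open grey points were under the intensity filter, and most other intervals include 0.

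Myb, which supports survival and receptor rearrangement in early thymocytes, varied more within the groups than between them. Probe set 1421317_x_at read 2894, 2853 and 7511 in wild type against 5107, 5945 and 3045 in the labelled knockouts. Wild type replicate 3 was the highest of the 6, and the other 2 wild type arrays were the lowest. The change was 0.17 (SE 0.36, limma adjusted p = 0.85). The second, 1450194_a_at, read 1276, 1437 and 3474 against 2069, 2495 and 1192.5, with wild type replicate 3 again the highest of the 6 and a change of -0.03 (SE 0.37). The third, 1422734_a_at, gave 0.08 (SE 0.27). The difference of wild type replicate 3 from the other 2 wild type arrays was 1.35 and 1.32 on the log2 scale for the brighter probe sets, larger in size than in 96.6% and 96.2% of all probe sets tested.

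That array stood off its group in other members as well. It was lower than wild type replicates 1 and 2 by 1.22 in Runx1 1440878_at (larger in size than 94.8% of probe sets tested), and by 0.98 in Gata3 (89.2%). It was higher by 0.98 in Runx3 1440275_at (89.0%). In Bcl11b 1435227_at and Ets1 1452163_at it differed by 0.15 and 0.28, near or under the middle of all probe sets (21.1% and 37.5%). The granulocyte and erythroid signals given above also set this array apart, and their part in the members' values was not tested.

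Ets1, the founding ETS family factor, had 4 probe sets that all gave positive estimates, none of which passed. The brightest, 1452163_at, read 4362.5, 5538 and 6087 in the wild type animals and 7167, 9421 and 5958 in the labelled knockouts. Double knockout replicate 3 lay among the wild type values, so the groups overlapped. The change was 0.46 (SE 0.22, 95% interval -0.01 to 0.94, limma adjusted p = 0.281). At 1426725_s_at the groups overlapped as deposited (3152 to 3612 against 3602 to 5612). After centring of the arrays they were barely apart, with 11.814 in log2 for the highest wild type array and 11.818 for the lowest labelled knockout. The change was 0.38 (SE 0.21). The other 2 gave 0.55 (SE 0.29) and 0.45 (SE 0.30). The 3 ratios to the brightest probe set differed between the genotypes by -0.09 to 0.09, none past the test.

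Ikzf1, which encodes Ikaros, had 2 probe sets, and neither passed with all arrays weighted equally. The bright one, 1436312_at, read 2076, 1329.9 and 1157.5 for wild type and 1856, 1930.3 and 2108 for the labelled knockouts. The latter lay close together, within the range of the wild type arrays or just above it. The change was 0.39 (SE 0.25, 95% interval -0.15 to 0.93, limma adjusted p = 0.437). The dim one, 1421303_at, read 12.6, 3.39 and 11.9 against 49.7, 30.5 and 14.5, at or under the brightest control on 4 arrays, with a change of 0.84 (SE 0.33, adjusted p = 0.194). It cleared the intensity filter only through the labelled knockouts, since its wild type arrays lay at 4.35 to 4.81 in log2, under 4.87. With array weights the probe set passed (1.23, adjusted p = 0.0289).

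Zbtb7b, the ThPOK factor of CD4 cells, was dim. Probe set 1420663_at read 54.0, 52.8 and 31.1 in wild type against 29.2, 44.2 and 32.7 in the labelled knockouts. Its 31.1 on wild type replicate 3 stood beside 29.9 for the brightest bacterial control there. The groups overlapped, with a change of -0.28 (SE 0.26, 95% interval -0.85 to 0.30). The other probe set was under the filter, at 4.87 to 7.01 on 5 arrays and 27.7 on double knockout replicate 3.

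**Figure D4:**
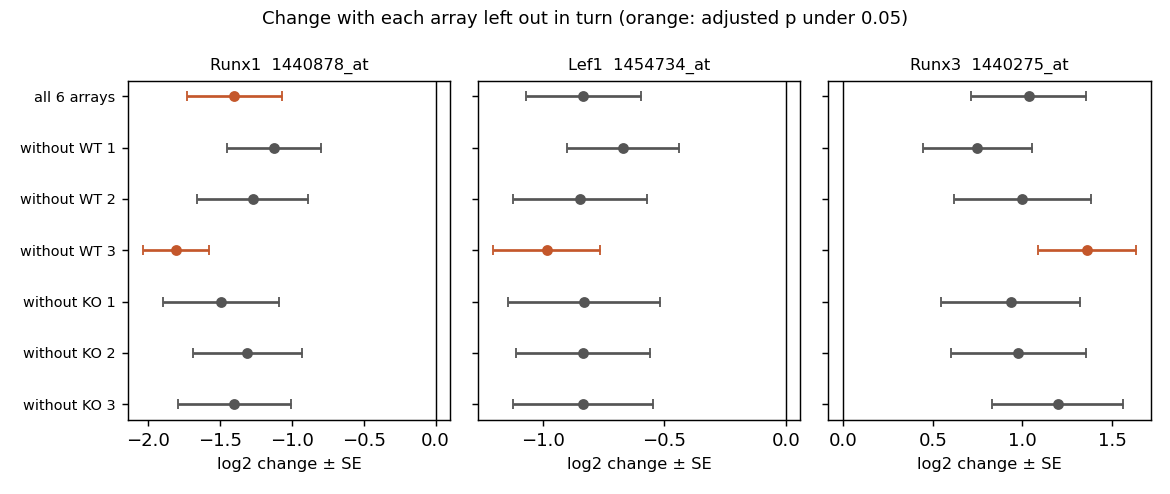
Change in log2(intensity + 16) ± SE (horizontal axes) for the brightest tested probe sets of Runx1, Lef1 and Runx3, with all 6 arrays and with each array left out in turn (WT is wild type and KO is labelled double knockout). Orange marks an adjusted p under 0.05: Runx1 has it with all arrays and without WT 3, Lef1 and Runx3 have it only without WT 3.

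Genes that work beside these factors were read from 5 lists of 112 genes, of which 108 were named on the array and 104 tested in the fit with 1 probe set for each gene. Of the 104, 5 passed as higher and 5 as lower in the labelled knockouts (9.62%, beside 6.98% of all genes), with a median change of -0.02 beside -0.01. Without wild type replicate 3 the counts were 8 and 9, and without 1 of the other arrays they were 1 to 4 higher and 2 to 5 lower. The calls over all genes moved likewise, from 920 with all arrays to 1910 without wild type replicate 3 and to between 281 and 524 without 1 of the others. Most relatives and partners of the members did not pass: 1 of 20 in the RUNX, TCF and GATA list and 1 of 22 in the ETS, IKAROS, MYB and BTB zinc finger list.

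The 1 in the RUNX, TCF and GATA list was Tle2, a Groucho corepressor that RUNX and TCF factors can recruit. Its values were 7.69, 3.60 and 1.07 in wild type, under the brightest bacterial control, and 31.3, 25.1 and 26.7 in the labelled knockouts, just above it, and it rose by 1.11 (SE 0.28, limma adjusted p = 0.0378). Its wild type values were also under the filter intensity of 13.2, so it was tested only through the labelled knockouts. The call was lost without any 1 wild type array (adjusted p of 0.0547 to 0.095), and without any 1 of the others the gene was under the filter. Of its relatives, Tle4 had a change of 0.51 (SE 0.23) and Tle3 of -0.48 (SE 0.23), and Tcf7l1, a relative of Tcf7, of 0.55 (SE 0.24), none past the test. In the other list, Mybl2, the cell cycle relative of Myb, fell by 1.09 (SE 0.29, adjusted p = 0.0463), from 212, 183 and 97.3 to 63.3, 73.6 and 62.3, a call that was lost without any 1 array other than wild type replicate 3 (adjusted p of 0.108 to 0.17). Ikzf2, which encodes the Ikaros relative Helios, read 636, 480.0 and 364 in the wild type animals and 728, 980.5 and 843 in the labelled knockouts, without overlap, but its change of 0.77 (SE 0.26) did not pass (adjusted p = 0.105). Ikzf3 (0.67, SE 0.28) and Zbtb16, the PLZF factor of innate-like T cells (0.57, SE 0.24), did not pass either.

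Among 25 tested genes that T lineage factors are known to act on, 1 passed as higher and 3 as lower, beside 4.14% and 2.84% of all genes, with a median change of -0.12 beside -0.01. Il7r, which encodes the receptor chain for interleukin-7, read 1091, 1079 and 843 for wild type and 2990, 2757 and 2912.5 for the labelled knockouts, and rose by 1.50 (SE 0.21, limma adjusted p = 0.00225). Ptcra, the gene of the pre-T cell receptor's invariant chain, read 4344, 4154 and 5145 in wild type against 1195, 1056 and 1469, and fell by 1.89 (SE 0.21, adjusted p = 0.000602). Il2ra, which encodes CD25, fell by 1.20 (SE 0.22, adjusted p = 0.00937), and Dntt, the gene of terminal transferase, fell by 0.72 (SE 0.16, adjusted p = 0.0249). These 3 also mark the DN2 and DN3 stages in the marker list above. Both probe sets of Il7r and of Il2ra passed, whereas those of Dntt did not all do so (-0.84, SE 0.37, and -0.44, SE 0.23, at the other 2). The call of Il2ra was lost without double knockout replicate 1 (adjusted p = 0.0545), and that of Dntt without wild type replicate 1 or any single labelled knockout (0.0699 to 0.125). Dntt, read here by an _x_at probe set, also lost its call with the mean over its probe sets (0.102) and without _s_at and _x_at probe sets (0.219). Cd4, the gene that Runx1 holds silent, stayed under the filter.

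Factors of progenitors and of other lineages, which the T lineage programme normally holds down, gave 3 of 19 tested genes higher in the labelled knockouts and none lower, beside 4.14% and 2.84% of all genes, with a median change of 0.23 beside -0.01. Nfil3, a factor of innate lymphoid and NK development, read 3.92, 10.9 and 2.47 for wild type and 36.9, 56.1 and 30.8 for the labelled knockouts, and rose by 1.37 (SE 0.30, limma adjusted p = 0.0198). Its wild type values were under the brightest bacterial control, so the size follows the offset (2.77 with 1 and 0.58 with 64). They were also under the filter intensity of 13.2, so Nfil3 was among the genes tested, and counted above, only through the labelled knockouts. Hoxa9, a homeobox gene of progenitors, read 32.9, 30.4 and 43.0 against 116, 197 and 65.0 and rose by 1.34 (SE 0.33, adjusted p = 0.0322), while its other probe set gave 0.63 (SE 0.28, not past the test). Tbx21, the T-bet factor of cytotoxic and Th1 cells, rose by 0.84 (SE 0.22). Cebpb, a myeloid factor, had a change of 2.70 (SE 0.74, adjusted p = 0.0527) with overlapping groups. All 3 calls were lost without wild type replicate 1 and without double knockout replicate 1 or 2 (adjusted p of 0.0689 to 0.222). Those of Hoxa9 and Tbx21 were also lost without wild type replicate 2 (0.11 and 0.102), and that of Tbx21 also without double knockout replicate 3 (0.0968). Fitting without an intensity trend took Tbx21 to 0.0519, and took Mybl2 and Dntt to 0.0559 and 0.0935. An offset of 1 took Tbx21 and Mybl2 to 0.0523 each.

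Of 18 E protein, Notch and other regulators tested, Myc alone passed, and it fell by 1.86 on the log2 scale (SE 0.25, limma adjusted p = 0.00146). Notch1, the receptor upstream of Tcf7 and Gata3, read 2295, 3179 and 2834.5 in wild type against 1903, 1921 and 2094 in the labelled knockouts, without overlap, with a change of -0.49 (SE 0.21, adjusted p = 0.218). Notch3 had -0.65 (SE 0.27), and Patz1, a BTB zinc finger gene, had -1.02 (SE 0.35, adjusted p = 0.12). Neither passed, and in both the labelled knockouts lay under the wild type arrays without overlap.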

How the data were processed

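The table that the authors deposited gives a linear intensity for every probe set on every array. The mean of the middle 96% of values is 150 on each array, so the arrays share a scale. The sources used here do not name the scanner software. Groups and replicate numbers come from the sample titles.

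Of 45101 probe sets, 64 controls were left out. Members were matched by the symbol of the platform annotation, which names 1 gene for 34945 of the remaining 45037 probe sets, several for 932 and none here for 9160. Elsewhere symbols were updated through RefSeq (GRCm38.p6; 34741 matched). An offset of 16 was added, log2 taken, and each array centred on its median, so changes of dim genes are understated. Left untested were probe sets whose mean over arrays was among the lowest 40% (below 4.87 in log2, or 13.2 in intensity). Changes were fitted with limma 3.58.1 in R 4.3.3 (eBayes with an intensity trend), adjusted by the Benjamini-Hochberg method over 27022 probe sets, or over 13187 genes, each represented by its brightest probe set. Members under the filter have values from the fit without it. Log ratios between probe sets of 1 gene were fitted the same way over 9423 pairs. SE is the moderated standard error, and the methods were tested on simulated data.

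Members, context lists and markers were chosen with earlier results of these data known. Named genes are the members, Egr1 and Egr3, the called and up to 4 lowest-p genes of each context list, listed markers, and the 3 genes nearest to a called member. Nothing but the labels says that arrays of a group are separate animals, so p-values measure the spread between these arrays.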

Additional observations from a re-analysis of the deposited data

How the results depend on the processing

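Of 894 values of single probe sets, ratios and genes under the alternatives, 778 kept their direction and side of the threshold, 58 lost a call, 17 gained one and 41, in 13 results, turned sign (limma adjusted p of 0.207 or more). The cause was not tested, except that fewer arrays or a block leave fewer degrees of freedom. Same-numbered arrays did not deviate together (correlations of -0.05, -0.13 and -0.29 over tested probe sets), and arrays of unlike number gave -0.185 to 0.255. With 3 arrays in each group, this cannot decide whether the numbers pair the animals, and the main fit did not pair them. With the replicate block, Runx1 1440878_at kept -1.401 (adjusted p = 0.0668; 0.0639 as a gene) and Runx1 1427650_a_at -1.402 (0.0661), 0 member probe sets and 0 member genes passed, and 573 of all probe sets did, not 1358. Of the 10 context genes called, 4 kept the call under the block (2 higher, 2 lower), while Il2ra (0.0686), Hoxa9 (0.0741), Tle2 (0.0862), Dntt (0.0863), Mybl2 (0.0964) and Tbx21 (0.145) lost it. Without a filter, 1427650_a_at kept -1.402 (0.0852) and 1 probe set passed as lower. At the 60th percentile 1 probe set and 2 genes did. With array weights, 2 member probe sets passed as higher (Runx3 1440275_at and Ikzf1 1421303_at) and 4 as lower, 1 gene as higher and 3 as lower, and 3417 of all probe sets. With the mean over probe sets, Runx1 had -0.633 and 0 genes passed. Without 1 array at a time, Runx1 1440878_at lay between -1.806 and -1.125, 1427650_a_at between -1.775 and -1.106, member probe sets higher between 0 and 1 and lower between 0 and 3, genes higher between 0 and 1 and lower between 0 and 2, and all probe sets between 376 (without double knockout replicate 1) and 2744 (without wild type replicate 3).

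Without 1 array at a time, Gata3 lay between -0.35 and 0.218, Lef1 1421299_a_at between -0.39 and 0.52, Runx1 1422864_at between -0.225 and 0.03, Runx1 1452530_a_at between -0.03 and 0.241, and the 3 Myb probe sets between -0.073 and 0.624, -0.323 and 0.405, and -0.156 and 0.198. Array weights gave -0.05 for Lef1 1421299_a_at, -0.004 for Runx1 1452530_a_at and 0.241 for Myb 1450194_a_at, which quantile normalization put at 0.045. Myb as a gene was -0.035 without its _x_at probe set. The ratio of Runx1 1427650_a_at to the brightest probe set was 0.009 with quantile normalization, 0.678 with an offset of 64, 0.004 with array weights and -0.065 to 0.049 without 1 array at a time. That of Myb 1422734_a_at was -0.436 to 0.229 and that of Ets1 1422027_a_at -0.373 to 0.226 without 1 array at a time, 0.054 for Ets1 with an offset of 1, and -0.029 for Ikzf1 1421303_at with 64, against 0.45 (SE 0.44) with 16.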
